A study of Mus musculus with 6 samples.

Results

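The genes described here are the enzymes and cofactors that write, oxidise and remove cytosine methylation in DNA: Tet1, Tet2 and Tet3, Dnmt1, Dnmt3a and Dnmt3b, Gadd45a, Gadd45b and Gadd45g, and Tdg. They were chosen by name, by mapping each gene identifier of the deposited tables to its mouse symbol, which found all 10 among 43432 genes listed and 22515 with a count in any library. All 10 had reads in each of the 6 libraries and all 10 received an adjusted p in each comparison, so none was lost to a filter on low values. The cultures were wild-type C57BL/6 cortical neurons from E16.5 embryos, male and female pooled, grown for 7 days and silenced overnight in every group with 1 µM TTX, a sodium channel blocker, and 100 µM DL-AP5, an NMDA receptor antagonist. Depolarization with 55 mM KCl, a treatment that lets calcium in through voltage-gated channels, followed for 0 h, 2 h or 6 h, with 2 replicates in each of the 3 groups, described in the series as biological duplicates. The 0 h group was therefore silenced and not depolarized. A bath of KCl depolarizes all cells of a dish together and lacks the patterning of synaptic input, and the dishes hold a mixed cortical culture.

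Methylated cytosine in DNA is made by the DNMT enzymes: Dnmt1 copies the mark onto the new strand after replication, and Dnmt3a and Dnmt3b place it on unmethylated DNA. The TET enzymes oxidise methylcytosine to hydroxymethylcytosine and further forms, Tdg is the glycosylase that cuts out the most oxidised of these, and base excision repair fills the gap with an unmodified cytosine. The GADD45 proteins are small stress-response proteins with no enzyme activity of their own that have been linked to DNA demethylation and to p38 MAP kinase signalling, and Gadd45b is a known activity-induced gene of neurons.

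Total expected counts ran from 25959298 to 28573067 per library. The replicates of the 2 h group stood apart from each other more than those of the other groups: their log2 differences had an SD of 0.429 at 2 h, beside 0.246 at 0 h and 0.214 at 6 h, and the differences at 2 h had a Spearman correlation of -0.735 with the GC content of the gene, across genes, which are not independent replicates. The depolarization itself showed in 3 activity-induced genes: at 2 h the log2 fold change was 7.71 for Fos, 7.64 for Npas4 and 4.03 for Bdnf, all called by DESeq2. Neuron markers summed to between 3207.1 and 4044.5 TPM (transcripts scaled for length and depth) over the 6 libraries, astrocyte markers to 507.9 to 553.5 at 0 h and 2 h and to 415.5 to 426.7 at 6 h, and microglia and endothelium markers to at most 4.6 and 1.2, with none of these genes at 0 in every library. Of the cell type markers, those called at 6 h against 0 h were Gad1 (1.41) and Tubb3 (-1.01) of neurons, Nes (1.08) and Hes5 (-1.81) of progenitors, Mog (-1.60) of the oligodendrocyte lineage, P2ry12 of microglia, which was at the floor of 3 counts or fewer in a group and is given no fold, and Pecam1 (1.16) of endothelium, and at 2 h Sox10 (-2.61) of the oligodendrocyte lineage and Pecam1 (1.45). In such bulk samples, fewer cells of a type and less RNA per cell cannot be told apart.

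Gadd45b and Gadd45g, the members with the largest fold changes, moved in the same direction in each comparison, so the 250 bases before their starts are shown together, with those of Tet3 and Dnmt3b, the other members called, and of Tdg, the member whose window held a CRE. The sequences are RefSeq's on GRCm38.p6, each 5′ to 3′ on the strand of its gene. The RefSeq start of Tet3 lies inside the span of its GENCODE gene, chr6:83362373-83459084. Those of Gadd45b and Tdg also lie inside their GENCODE genes, which start at chr10:80930073 and chr10:82629828, so the ends of these windows overlap the genes. Capitals mark matches, on either strand, to the CRE TGACGTCA, its stem TGACG, the AP-1 element TGANTCA, the E-box CACGTG and the TATA box TATAAA, with the stem lying inside the CRE. The E-box and the TATA box were added to the search after the sequences had been seen.
Gadd45b, chr10:80929841-80930090, plus strand: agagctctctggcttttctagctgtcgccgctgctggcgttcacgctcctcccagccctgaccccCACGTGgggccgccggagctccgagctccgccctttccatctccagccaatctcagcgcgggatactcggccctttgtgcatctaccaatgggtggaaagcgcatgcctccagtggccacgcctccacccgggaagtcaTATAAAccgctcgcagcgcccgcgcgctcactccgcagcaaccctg
Gadd45g, chr13:51846425-51846674, plus strand: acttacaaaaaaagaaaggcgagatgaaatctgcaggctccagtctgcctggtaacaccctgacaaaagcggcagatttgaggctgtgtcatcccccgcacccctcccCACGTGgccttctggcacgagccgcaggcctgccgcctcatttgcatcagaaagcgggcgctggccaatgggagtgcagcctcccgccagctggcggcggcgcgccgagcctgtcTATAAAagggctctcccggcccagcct
Tet3, chr6:83441679-83441928, minus strand: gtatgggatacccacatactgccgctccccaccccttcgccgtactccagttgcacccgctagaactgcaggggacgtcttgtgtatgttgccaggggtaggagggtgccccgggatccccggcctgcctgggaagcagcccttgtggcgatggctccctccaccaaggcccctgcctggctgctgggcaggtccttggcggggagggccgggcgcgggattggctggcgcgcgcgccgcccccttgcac
Dnmt3b, chr2:153649199-153649448, plus strand: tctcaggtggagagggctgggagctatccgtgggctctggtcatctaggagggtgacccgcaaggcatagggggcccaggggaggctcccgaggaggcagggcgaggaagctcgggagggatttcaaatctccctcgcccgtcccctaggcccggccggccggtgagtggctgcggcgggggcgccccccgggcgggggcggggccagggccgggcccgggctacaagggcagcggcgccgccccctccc
Tdg, chr10:82629588-82629837, plus strand: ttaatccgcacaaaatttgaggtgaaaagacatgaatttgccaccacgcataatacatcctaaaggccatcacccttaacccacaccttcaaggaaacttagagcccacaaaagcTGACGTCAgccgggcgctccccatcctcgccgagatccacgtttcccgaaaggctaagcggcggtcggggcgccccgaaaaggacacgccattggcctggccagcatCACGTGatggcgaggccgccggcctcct

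The windows of Gadd45b and Gadd45g both held an E-box and a TATA box. The TATA box began 46 bases before the RefSeq start in Gadd45b and 27 bases before it in Gadd45g, and the E-box began 185 and 142 bases before it. As the RefSeq start of Gadd45b lies inside its GENCODE gene, its distances would be shorter from the GENCODE start. The difference between the 2 genes in the place of the TATA box thus depends on the annotation. Of 32841 promoter windows of this length, 6.02% held the E-box, 12.4% the TATA box and 0.518% held both. No CRE, stem or AP-1 match lay in either Gadd45 window, nor in those of Tet3 and Dnmt3b, which held none of the 5 motifs. Of the 14 RefSeq windows of the 10 members, 1 held a full CRE, that of Tdg, 135 bases before its start, against 1.55% of all windows (the stem alone was in 17.8% and the AP-1 element in 6.75%). The Tdg window also held an E-box, as did the third of 3 windows of Dnmt3a. CpG pairs numbered 22 in the Gadd45b window, 16 in that of Gadd45g, 17 in that of Tet3 and 21 in that of Dnmt3b. Over the 14 windows they ranged from 2 at the first Dnmt1 start to 51 at that of Tet2, against a median of 6 over all windows with quartiles of 2 and 16. A match of letters is a description, and a missing match says only that these letters are not in this window.

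Levels differed widely within the set. At 0 h the order of mean TPM ran from Tdg (107 ± 6.70, SD, n = 2) through Dnmt3a (59.5), Dnmt1 (45.8), Tet3 (23.1), Tet1 (20.2), Tet2 (8.66), Gadd45a (2.01), Gadd45g (1.15) and Dnmt3b (0.855) to Gadd45b (0.315). In this order the libraries of Tet3 and Tet1, of Gadd45a and Gadd45g, and of Gadd45g and Dnmt3b overlapped, and all other neighbours were separate. At 2 h Gadd45g (14.0 TPM) and Gadd45b (9.07 TPM) stood beside Tet1 (10.3 TPM) and Tet2 (9.06 TPM), and the libraries of each of these overlapped its neighbour in the order. At 6 h Tet3 (46.9 TPM) stood above Dnmt1 (28.1 TPM) with no overlap, the reverse of their order at 0 h.

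**Figure D1:**
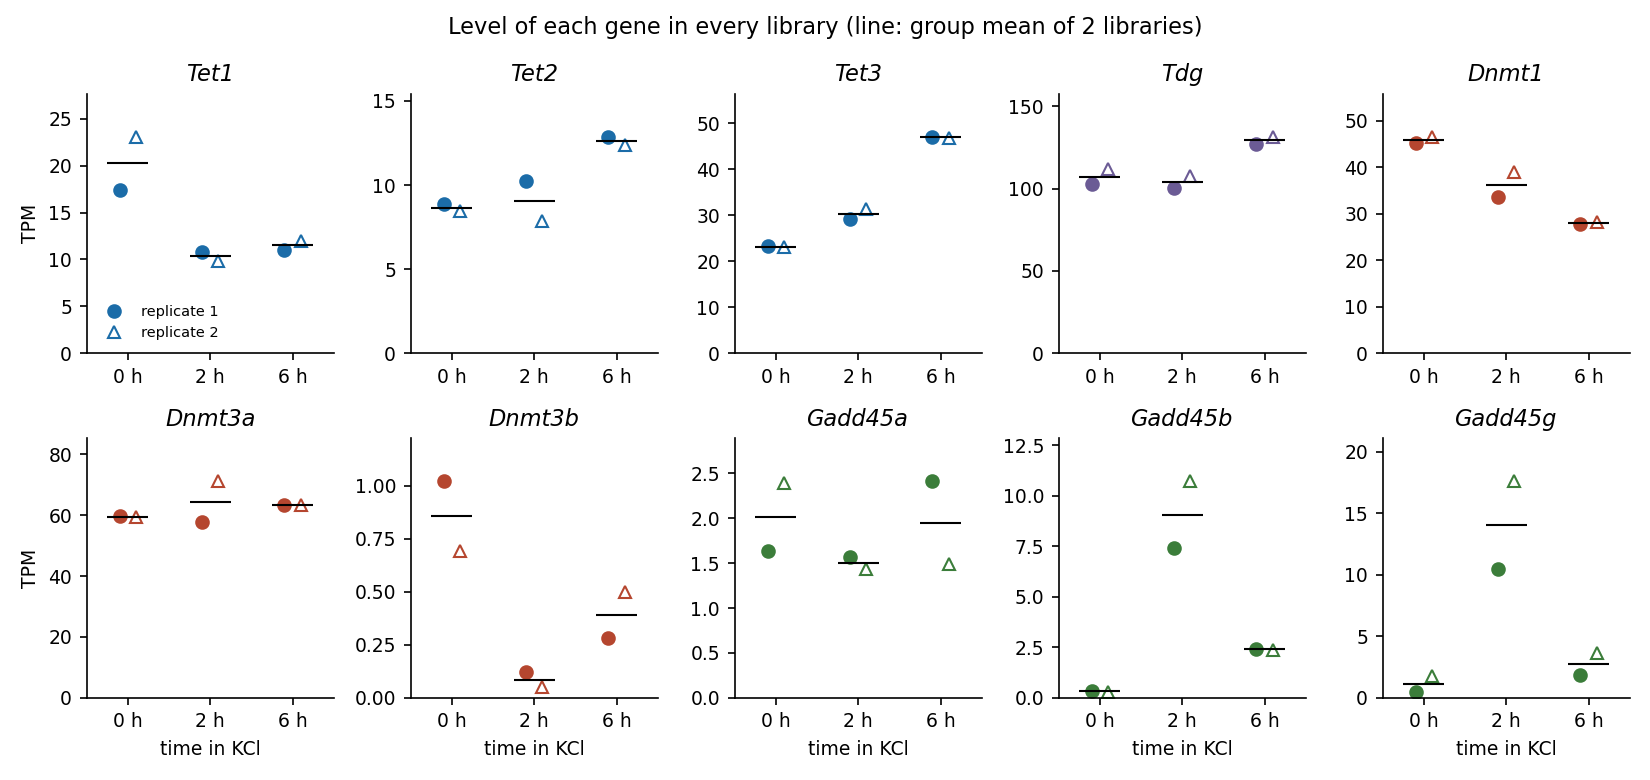
Level of each of the 10 genes in TPM (vertical axis, from 0, scaled separately in each panel) by time in KCl, with filled circles for replicate 1, open triangles for replicate 2 and a line at the mean of the 2 libraries. Gadd45b and Gadd45g peaked at 2 h, Dnmt3b was lowest at 2 h, and Tet3 reached 47.01 and 46.71 TPM at 6 h.

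At 2 h against 0 h, 2 of the 10 members were called higher, Gadd45b and Gadd45g, and 1 was called lower, Dnmt3b. A gene was called at a DESeq2 adjusted p of at most 0.05 with a fold change over 2. Of the 16840 genes with an adjusted p in this comparison, 3.62% were called higher and 5.94% lower. By the adjusted p whatever the fold, 3 members were higher and 2 lower, where 12.3% of all genes were higher and 14.2% lower. The median log2 fold change of the members was 0.22, beside 0.011 over all genes averaging 10 counts or more.

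At 6 h against 0 h, 3 members were called higher, Tet3, Gadd45b and Gadd45g, and none lower. Over all 17277 genes with an adjusted p, 9.10% were called higher and 10.2% lower. By the adjusted p whatever the fold, 5 members were higher and 2 lower, beside 23.7% and 21.7% of all genes. The median of the members was 0.35, beside -0.004 over all genes. At 6 h against 2 h, Dnmt3b was called higher and Gadd45b and Gadd45g lower, where 10.1% of 16404 genes were called higher and 8.02% lower. By the adjusted p whatever the fold, 4 members were higher and 3 lower, beside 24.1% and 21.2% of all genes, and the median of the members was 0.21, beside 0.005. These counts fell in the fit on only the 2 groups compared, where Dnmt3b, Tdg and Dnmt1 did not pass (DESeq2 adjusted p = 0.123, 0.085 and 0.0519). The comparisons share libraries in pairs, so their calls are not independent of each other.

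**Figure D2:**
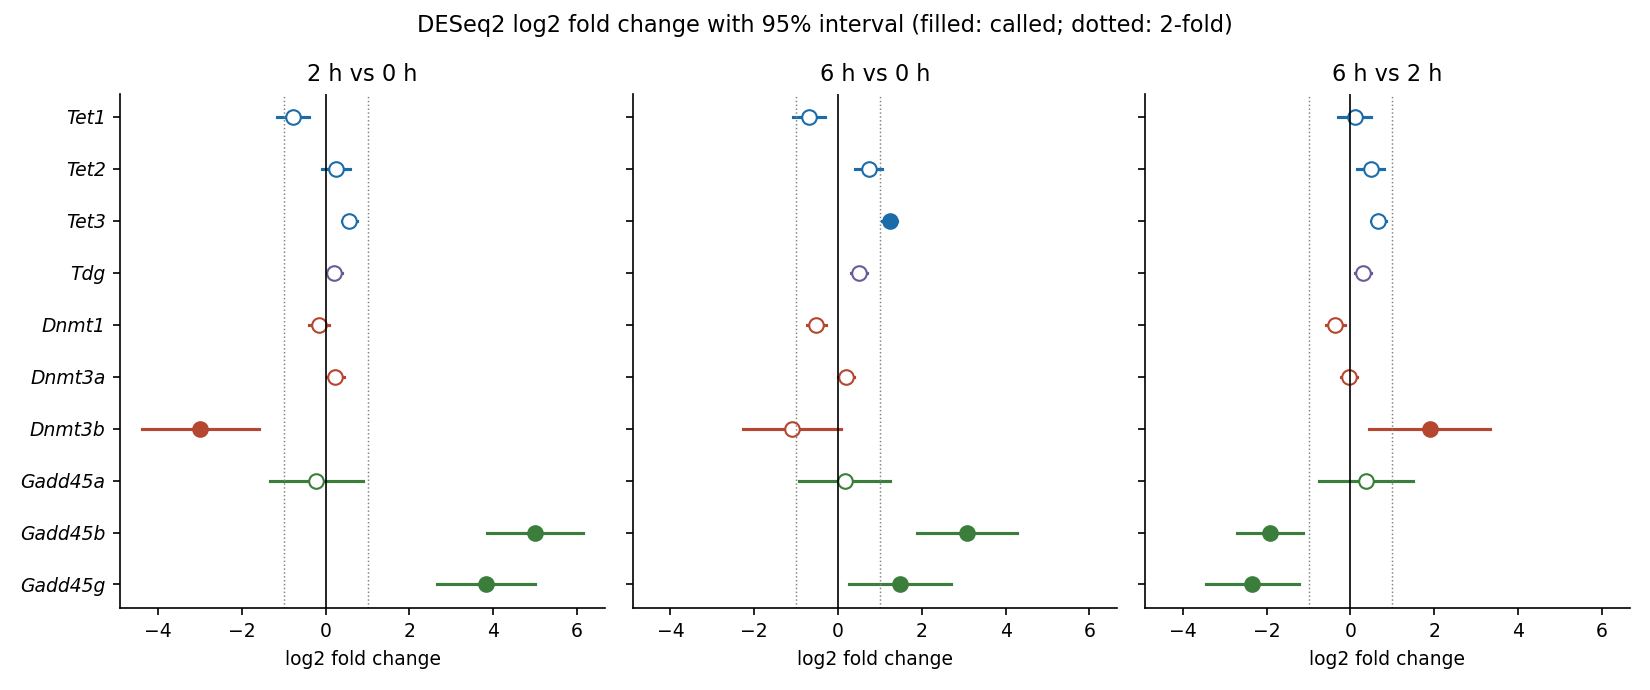
DESeq2 log2 fold change (horizontal axis) of each of the 10 genes (vertical axis) in the 3 comparisons, with the 95% interval as a line. Filled points passed both thresholds, and dotted lines mark a 2-fold change. The widest intervals are those of Dnmt3b, Gadd45a, Gadd45b and Gadd45g, the genes with the fewest reads.

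Gadd45b (ENSMUSG00000015312, chr10:80930073-80932204, plus strand) had the largest fold change of the set. Gene positions here and below are those of GENCODE on GRCm38. Its expected counts were 5 and 5 before KCl (0 h), 114 and 157 after 2 h and 35 and 33 after 6 h, so the groups did not overlap, with the highest libraries at 2 h. The exact Poisson interval of a count of 5 was 1.62 to 11.7, which covers counting error only. The log2 fold change at 2 h was 5.0 (SE 0.58, DESeq2 adjusted p = 5.82e-16), a 31.9-fold rise. At 6 h it was 3.08 against 0 h (SE 0.60, DESeq2 adjusted p = 1.93e-06) and -1.92 against 2 h (SE 0.40, DESeq2 adjusted p = 1.09e-05), so the level at 6 h lay between those at 0 h and 2 h. The calls against 0 h held in each of 14 alternatives, with values of 3.53 to 5.22 at 2 h and 1.83 to 3.22 at 6 h. The lowest of each came from TPM with a pseudocount of 0.5, which understates the change of a gene this low. Gadd45b has 1 annotated transcript and no overlapping gene.

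Gadd45g (ENSMUSG00000021453, chr13:51846678-51848468, plus strand) followed the same order of groups with a wider spread between replicates. Its counts were 6 and 22 in the 0 h libraries, 127 and 205 in those at 2 h and 21 and 41 in those at 6 h. By counts, the lower library at 6 h lay under the higher library at 0 h, and after scaling for library size these stood at 22.47 and 18.54 normalized counts. The rise at 2 h was 14.1-fold (log2 3.82, SE 0.60, DESeq2 adjusted p = 4.14e-09) and was called in all 14 alternatives, with log2 values of 3.20 without replicate 1 of 0 h and 5.0 without replicate 2 of 0 h. The fall from 2 h to 6 h was -2.35 (SE 0.56, DESeq2 adjusted p = 1.34e-04). The value at 6 h against 0 h was 1.47 (SE 0.62, DESeq2 adjusted p = 0.0407), a call that was lost in 7 of 14 alternatives: with edgeR it was 1.42 (adjusted p = 0.0892), without replicate 1 of 0 h 0.85 (DESeq2 adjusted p = 0.355) and without replicate 2 of 6 h 0.91 (DESeq2 adjusted p = 0.4). Without replicate 2 of 0 h it was 2.65 and called.

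Gadd45a (ENSMUSG00000036390, chr6:67035096-67037457, minus strand), the p53-responsive member of the family, passed the test in no comparison. It had 24 and 35 counts before KCl (0 h), 23 and 20 after 2 h and 33 and 20 after 6 h, and its groups overlapped in each comparison. The 95% intervals of its log2 fold change were -1.33 to 0.89 at 2 h and -0.93 to 1.25 at 6 h against 0 h. Gadd45a overlaps E230016M11Rik on the opposite strand, and the strand setting of the counting is not given in the sources used here. The counts of Gadd45a were whole in each library, so they show no division of reads by RSEM between it and another gene.

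The summed level of the 3 Gadd45 genes was 3.47 ± 1.46 TPM at 0 h, 24.6 ± 7.26 at 2 h and 7.10 ± 0.573 at 6 h (SD, n = 2). Within it, Gadd45a held 66.8% and 53.1% in the 0 h libraries, 8.1% and 4.8% after 2 h and 36.0% and 19.8% after 6 h. Gadd45g held the largest share at 2 h, 53.8% and 59.1%. The shares were not tested.

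Tet3 (ENSMUSG00000034832, chr6:83362373-83459084, minus strand), the TET enzyme known for its part in neurons and in the zygote, was the only TET gene called, in any of the 3 comparisons. Its counts were 3522 and 3661 in the 0 h libraries, 4569 and 4472 in those at 2 h and 6909 and 6659 in those at 6 h, with no overlap between any of the groups. The rise at 6 h against 0 h was 2.34-fold (log2 1.23, SE 0.09, 95% interval 1.05 to 1.41, DESeq2 adjusted p = 1.03e-38). Tet3 was already higher at 2 h by 0.56 (DESeq2 adjusted p = 2.02e-08) and higher again at 6 h than at 2 h by 0.66 (DESeq2 adjusted p = 6.04e-12), both under the 2-fold threshold. Scaled by library totals the value at 6 h was 0.98 (DESeq2 adjusted p = 3.02e-20), just under 2-fold, with the median of all genes at -0.251 under that scaling.

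Tet1 (ENSMUSG00000047146, chr10:62804570-62908996, minus strand), which carries a CXXC domain that binds unmethylated CpG, was lower in the depolarized libraries, under the 2-fold threshold. Its counts were 2208 and 2257 before KCl (0 h), 1333 and 880 after 2 h and 1112 and 1120 after 6 h, so each depolarized library lay below the 0 h libraries and the replicates at 2 h were the farthest apart. The log2 fold change was -0.79 at 2 h (SE 0.19, DESeq2 adjusted p = 4.18e-04) and -0.69 at 6 h (SE 0.19, DESeq2 adjusted p = 0.00131). Without replicate 1 of 2 h the value at 2 h was -1.10 and called, and without replicate 2 of 2 h it was -0.55 and not called. The value at 6 h against 2 h had a DESeq2 adjusted p of 0.73 over all 6 libraries. It was 0.40 without replicate 1 of 2 h and -0.14 without replicate 2 of 2 h. The TPM of Tet1 at 0 h, 17.42 and 23.07, differed between replicates more than the counts did, as RSEM gave effective lengths of 7931 and 5855 bases for the 2 libraries. The GC content of its longest transcript was 43.7%, below the median of 49.2% and the lower quartile of 44.5% over genes averaging 50 counts or more.

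Tet2 (ENSMUSG00000040943, chr3:133463679-133545139, minus strand), whose protein lacks the CXXC domain, had counts of 1256 and 1253 in the 0 h libraries, 1472 and 1076 in those at 2 h and 1731 and 1627 in those at 6 h. Its 0 h and 2 h libraries overlapped after scaling, and both 6 h libraries stood above them. The log2 fold change at 6 h was 0.73 (SE 0.17, DESeq2 adjusted p = 6.39e-05), under the 2-fold threshold. At 2 h the adjusted p by DESeq2 was 0.308, and it was 0.0445 with GC correction (0.28) and 0.00407 without replicate 2 of 2 h (0.42).

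The 3 TET genes together summed to 52.0 ± 3.49 TPM at 0 h, 49.6 ± 0.799 at 2 h and 71.0 ± 0.106 at 6 h. Tet3 held 47.0% and 42.2% of this in the 0 h libraries, 58.0% and 63.8% at 2 h, and 66.3% and 65.7% at 6 h. Tet1 held 35.1% and 42.3% before KCl (0 h), 21.6% and 20.1% after 2 h and 15.6% and 16.8% after 6 h. The share of Tet2 stayed between 15.5% and 20.4% in all 6 libraries, while that of Tet3 was above its 0 h values in each depolarized library.

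**Figure D3:**
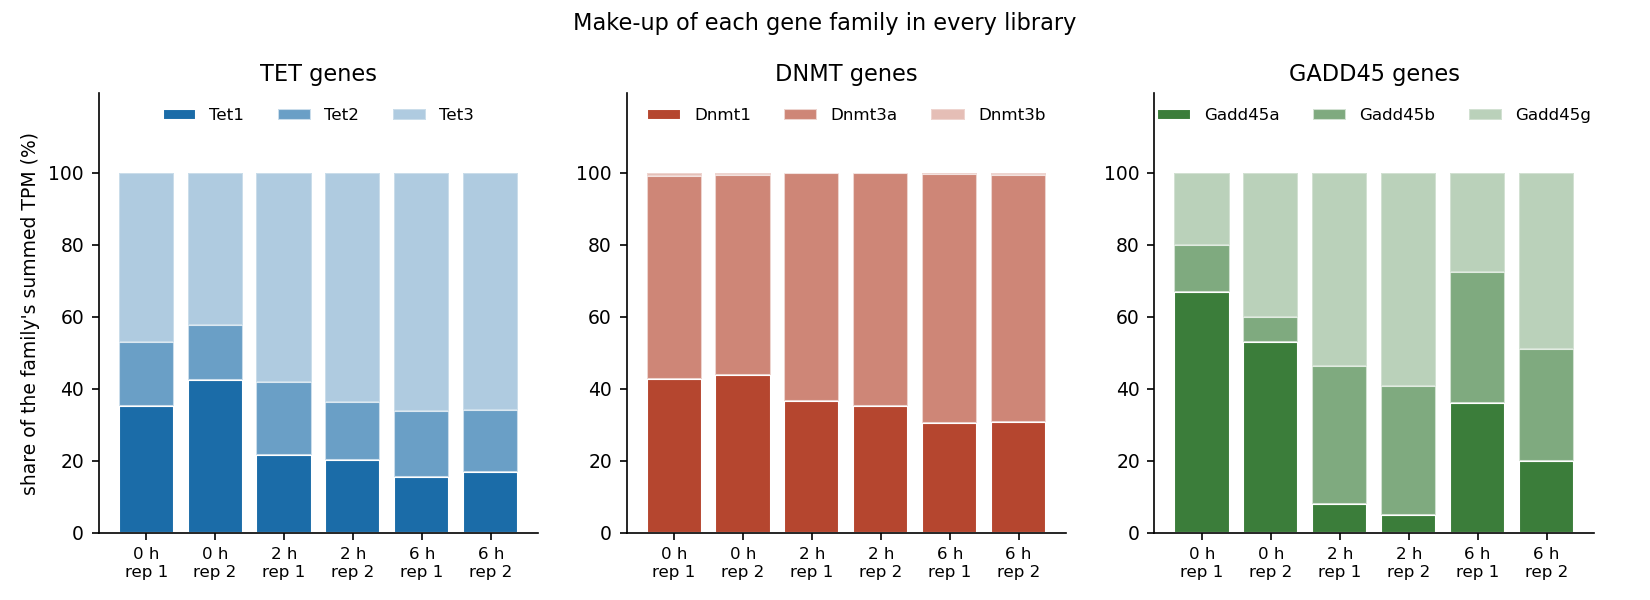
Share of each gene in the summed TPM of its family (vertical axis, percent) in each of the 6 libraries (horizontal axis), for the TET, DNMT and GADD45 genes. The Tet1 and Dnmt1 segments were smaller in each depolarized library than at 0 h, and the Gadd45a segment was 8.1% and 4.8% at 2 h.

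Tdg (ENSMUSG00000034674, chr10:82629828-82650799, plus strand) was the member with the highest level and had its highest libraries at 6 h. Its counts were 3359 and 3633.46 in the 0 h libraries, 3510.27 and 3350.53 in those at 2 h and 3958.47 and 4073.89 in those at 6 h. The log2 fold change was 0.51 at 6 h against 0 h (SE 0.10, DESeq2 adjusted p = 5.09e-07) and 0.31 against 2 h (SE 0.10, DESeq2 adjusted p = 0.00411), both under the 2-fold threshold. The latter did not pass the adjusted p without replicate 1 of 6 h (DESeq2 adjusted p = 0.141), without replicate 2 of 6 h (DESeq2 adjusted p = 0.225), by library totals (DESeq2 adjusted p = 0.0692) or in the fit on only the 2 groups compared (DESeq2 adjusted p = 0.085). The counts of Tdg were not whole in 5 libraries, which means that RSEM divided reads between it and another locus, and Tdg overlaps Glt8d2 on the opposite strand, so some of its reads may belong elsewhere. At 2 h against 0 h the log2 fold change was 0.21 (DESeq2 adjusted p = 0.1), and with GC correction it was 0.23 (DESeq2 adjusted p = 0.0087).

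Dnmt3b (ENSMUSG00000027478, chr2:153649450-153687730, plus strand), a de novo methyltransferase mainly of early embryonic cells, was the rarest methyltransferase and the one called. It had 50 and 43 counts before KCl (0 h), 7 and 3 after 2 h and 16 and 19 after 6 h, with no overlap between any of the groups. The exact Poisson intervals were 31.1 to 57.9 for the lower library at 0 h and 2.81 to 14.4 for the higher library at 2 h. The fall at 2 h was 7.95-fold (log2 -2.99, SE 0.71, DESeq2 adjusted p = 2.10e-04) and the value at 6 h against 2 h was 1.89 (SE 0.73, DESeq2 adjusted p = 0.0243). At 6 h against 0 h the value was -1.10 (95% interval -2.26 to 0.06, DESeq2 adjusted p = 0.12), which edgeR called at -1.13 (adjusted p = 0.0299). The fall at 2 h ranged from -3.71 (without replicate 1 of 2 h) to -2.54 (without replicate 2 of 2 h) and was lost in 2 of 13 alternatives, without replicate 1 of 0 h (-2.83, DESeq2 adjusted p = 0.0633) and when tested against a log2 fold change of 1 (DESeq2 adjusted p = 0.169). The rise from 2 h to 6 h was lost in 5 of 13 alternatives, among them the fit on only the 2 groups compared (1.89, DESeq2 adjusted p = 0.123) and those without replicate 2 of 2 h (1.44, DESeq2 adjusted p = 0.224), without replicate 1 of 6 h (2.01, DESeq2 adjusted p = 0.115) and without replicate 2 of 6 h (1.76, DESeq2 adjusted p = 0.194). Without replicate 1 of 2 h it was 2.61 and called. At 1.02 TPM or less in each library, Dnmt3b made up at most 1.0% of the DNMT level.

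Dnmt1 (ENSMUSG00000004099, chr9:20907209-20959888, minus strand), the maintenance enzyme, was lower at 6 h, under the 2-fold threshold. Its counts were 3632 and 3902 in the 0 h libraries, 2729 and 2998 in those at 2 h and 2121 and 2103 in those at 6 h. The log2 fold change was -0.16 at 2 h (95% interval -0.39 to 0.07, DESeq2 adjusted p = 0.347) and -0.52 at 6 h (SE 0.12, DESeq2 adjusted p = 3.22e-05), which is 1.44-fold and not called. Without replicate 2 of 2 h, the value at 2 h was -0.27 (DESeq2 adjusted p = 0.0172). Markers of dividing cells, which use Dnmt1 at replication, summed to 227.8 to 242.1 TPM at 0 h, 200.8 to 223.6 at 2 h and 170.0 to 185.8 at 6 h, with none of the 10 markers at 0 in every library. None of the 10 was called at 6 h against 0 h by DESeq2, where 3 had an unadjusted p under 0.05. The adjusted p was passed by 3 with DESeq2, all of them lower, and by 3 with edgeR. The median log2 fold change of the 10 markers was -0.07, and some of them, such as Birc5 (0.37), were higher. On log2(TPM + 0.5) the median of all genes moved by -0.151 in this comparison, so part of a falling sum of TPM lies in the scale. The part of dividing cells in the Dnmt1 result was not tested.

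Dnmt3a (ENSMUSG00000020661, chr12:3806007-3914443, plus strand), the de novo enzyme of neurons, had the highest level of the DNMT genes and was called in no comparison. Its counts were 7580 and 7681 before KCl (0 h), 7417 and 7792 after 2 h and 6958 and 7101 after 6 h. The 95% interval of its log2 fold change was 0.03 to 0.43 at 2 h and -0.01 to 0.39 at 6 h against 0 h, and -0.23 to 0.16 at 6 h against 2 h, so each interval lay within a 2-fold change. The value at 2 h was 0.23 (DESeq2 adjusted p = 0.0817). It passed the adjusted p with GC correction (0.24, DESeq2 adjusted p = 0.00178) and without replicate 1 of 2 h (0.28, DESeq2 adjusted p = 9.49e-04), and the value at 6 h against 0 h passed it with GC correction (0.27, DESeq2 adjusted p = 2.03e-04). Dnmt3a has 18 annotated transcripts and 3 RefSeq starts, which these gene-level counts do not separate.

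The 3 DNMT genes summed to 106 ± 0.438 TPM at 0 h, 101 ± 13.2 at 2 h and 91.7 ± 0.516 at 6 h, on a scale where the median of all genes moved by -0.161 at 2 h and -0.151 at 6 h on log2(TPM + 0.5). In normalized counts, the mean of Dnmt1 went from 3256 at 0 h to 2266 at 6 h and that of Dnmt3a from 6601 to 7541. Dnmt3a held 56.4% and 55.7% of this before KCl, 63.2% and 64.6% after 2 h and 69.2% and 68.7% after 6 h, and Dnmt1 held nearly all of the rest. The ratio of summed TET to summed DNMT TPM was 0.47 and 0.51 in the 0 h libraries, 0.55 and 0.45 after 2 h and 0.78 and 0.77 after 6 h. The 6 h libraries lay above the other 4, which overlapped each other.

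The effective length that RSEM assigns to a gene moves with the mix of its transcripts, and no member was called for a shift of it. The limma test covered Tet1, Tet2, Tet3, Dnmt1, Dnmt3a and Tdg, the members averaging 100 counts or more. In each of the 3 comparisons 0 of these 6 members had an unadjusted p under 0.05, against a share of all 11233 genes tested that was called of 0.0356% at 2 h against 0 h, 0.525% at 6 h against 0 h and 0.116% at 6 h against 2 h. Differences of the kind seen between the 0 h replicates of Tet1 limit what this test can show for that gene.

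The genes most like each called member were sought among 11183 genes averaging 100 normalized counts or more, by the Euclidean distance between log2(normalized count + 1) values over the 6 libraries, each gene centred on its own mean. Nearest to Gadd45b was Nr4a2, an activity-induced nuclear receptor, at a distance of 0.93, with log2 fold changes of 5.47 at 2 h and 3.35 at 6 h against 0 h, followed by Gm29562 at 1.27 and Klf4 at 1.37. Nearest to Gadd45g was Klf4, a zinc-finger transcription factor, at 1.20, with 3.98 and 1.54, followed by Gm29562 at 1.58 and Cwc25 at 1.61. These distances were larger than those for Tet3, nearest to which were Foxn3, a forkhead factor, at 0.10, with 0.59 and 1.23, and Fam189a2 and Gm9996, both at 0.14. Nearest to Dnmt3b were the zinc-finger gene Zfp59 at 0.21, with -2.92 and -1.02, Ankrd49 at 0.48 and Zfp882 at 0.51. Klf4 and Gm29562 were among the nearest 3 of both Gadd45b and Gadd45g.

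The genes that work with the members were taken as 7 lists of 60 genes, of which 57 had an adjusted p. At 2 h against 0 h, 1 was called higher and 4 lower, at 6 h against 0 h 3 higher and 8 lower, and at 6 h against 2 h 7 higher and 6 lower, beside the shares of all genes given above for each comparison. The split moved with the scaling: by library totals it was 0 higher and 5 lower at 2 h and 2 higher and 14 lower at 6 h against 0 h, and with GC correction it was 2 and 3 at 2 h.

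The base excision repair list, which holds other glycosylases beside the enzymes that act after a glycosylase, had the most called genes at 6 h against 0 h. Of its 16 genes, 5 were called lower and none higher, where 10.2% of all genes were called lower, with a median log2 fold change of -0.62, beside -0.004 over all genes. By the adjusted p whatever the fold, 10 were lower and 1 higher, beside 21.7% and 23.7% of all genes. The called genes were the glycosylases Nthl1, Ogg1, Neil1 and Mbd4 and, of the later steps, Xrcc1, while the gap-filling polymerase Polb was the one higher (0.80, DESeq2 adjusted p = 3.49e-11). In the same comparison 3 of 10 markers of dividing cells (Top2a, Ccna2 and Rrm2) and 3 of 6 of astrocytes (Gfap, Aldh1l1 and Gja1) were lower by the adjusted p, under the 2-fold threshold, and their summed levels were lowest at 6 h. The share of all genes lower by the adjusted p was 21.7%. The median log2 fold change was -0.07 over the dividing-cell markers, some of which were higher, and -0.28 over the astrocyte markers. The part of these cell types in the result was not tested. Nthl1, a glycosylase for oxidised pyrimidines, had 47 and 54 counts in the 0 h libraries, 37 and 72 in those at 2 h and 9 and 8 in those at 6 h, and its log2 fold change at 6 h was -2.26 (SE 0.61, DESeq2 adjusted p = 7.35e-04). Ogg1, the glycosylase for oxidised guanine, had 139 and 151 counts before KCl (0 h), 87 and 127 after 2 h and 33 and 40 after 6 h (log2 -1.68, SE 0.36, DESeq2 adjusted p = 1.24e-05). Both were lowest at 6 h, with no overlap between 6 h and the other groups.

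Xrcc1, the scaffold of single-strand break repair, had a log2 fold change of -1.16 at 6 h against 0 h (DESeq2 adjusted p = 1.17e-06), and Neil1, a further glycosylase, of -1.14 (DESeq2 adjusted p = 0.0389). The call of Neil1 was lost in 9 of 14 alternatives, among them the replicate block (-1.14, DESeq2 adjusted p = 0.054) and each fit without 1 of the 4 libraries. Mbd4, the glycosylase that removes thymine opposite guanine at CpG, was called at 2 h and at 6 h: its counts were 239 and 221 in the 0 h libraries, 69 and 81 in those at 2 h and 90 and 91 in those at 6 h. Its log2 fold change was -1.38 at 2 h (SE 0.27, DESeq2 adjusted p = 2.70e-06) and -1.04 at 6 h (SE 0.26, DESeq2 adjusted p = 2.97e-04). The later call was lost without replicate 1 of 0 h and on the TPM scale. At 6 h against 2 h, 4 genes of the list were called lower, Nthl1 (-2.61), Ogg1 (-1.48), Neil1 (-1.33) and Xrcc1 (-1.17), where 8.02% of all genes were called lower. Without replicate 2 of 2 h, Nthl1 was at -2.0 and called. The call of Xrcc1 was lost without replicate 2 of 2 h (-0.89) and under GC correction (-0.95). That of Neil1 was lost without replicate 2 of 2 h (-1.01), without replicate 1 of 6 h (-1.11) and without replicate 2 of 6 h (-1.59), and under GC correction with the replicate block (-1.19). All 4 calls were also lost when the fold was tested against an absolute log2 fold change of 1.

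**Figure D4:**
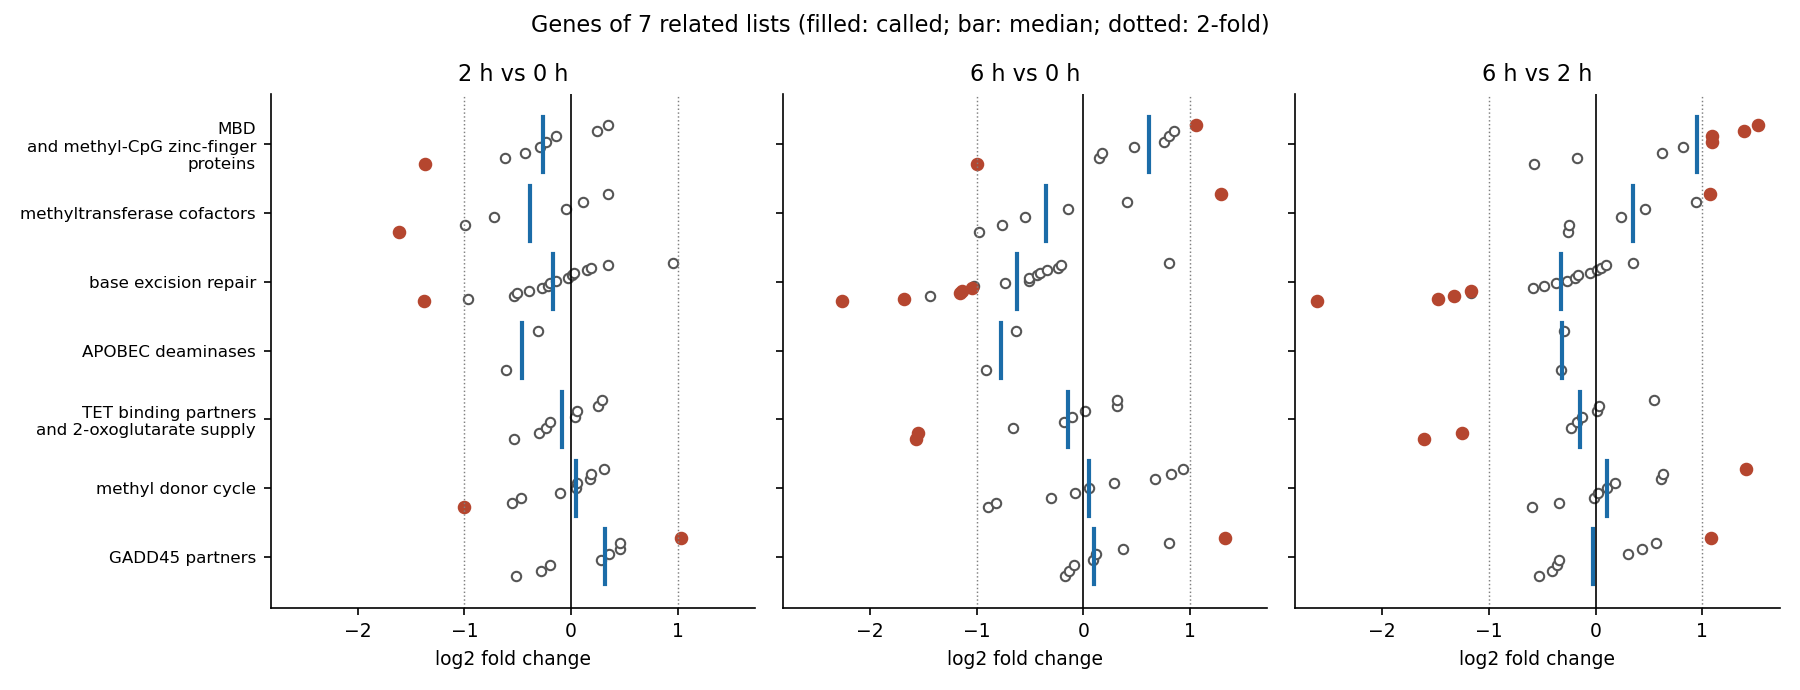
DESeq2 log2 fold change (horizontal axis) of the 57 related genes with an adjusted p, by list (vertical axis), in the 3 comparisons. Filled points were called, bars mark the median of a list and dotted lines a 2-fold change. The base excision repair genes at 6 h against 0 h had a median of -0.62 and 5 called lower.

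Among the TET binding partners and enzymes of 2-oxoglutarate supply, 2 of 9 genes were called, both lower at 6 h, where 10.2% of all genes were called lower against 0 h. Cxxc4, which binds Tet2, had 1255 and 1179 counts before KCl (0 h), 1086 and 608 after 2 h and 352 and 318 after 6 h (log2 -1.55 at 6 h, SE 0.26, DESeq2 adjusted p = 2.07e-08). D2hgdh, which clears the TET inhibitor 2-hydroxyglutarate, was at -1.57 (SE 0.24, DESeq2 adjusted p = 2.62e-10), a call lost on the TPM scale. Dppa3 had no count in any library.

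Of 7 methyltransferase cofactors, Usp7, a deubiquitinase that binds Dnmt1, was called higher at 6 h with counts of 4131 and 4205 in the 0 h libraries, 4717 and 4337 in those at 2 h and 8249 and 8240 in those at 6 h (log2 1.29, SE 0.09, DESeq2 adjusted p = 1.24e-40). The call held in all 14 alternatives. Cdca7l was called lower at 2 h (-1.61, DESeq2 adjusted p = 2.35e-04) and higher at 6 h against 2 h (1.07, DESeq2 adjusted p = 0.0174), the latter lost in 7 of 14 alternatives and the former without replicate 2 of 0 h. Uhrf1, which brings Dnmt1 to hemimethylated DNA, was at -0.98 at 6 h (DESeq2 adjusted p = 6.22e-06), under the 2-fold threshold.

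Among 8 proteins of the MBD and methyl-CpG zinc-finger families, the median log2 fold change was -0.26 at 2 h against 0 h, 0.62 at 6 h against 0 h and 0.96 at 6 h against 2 h. Zbtb38, a zinc-finger reader, was called lower at 2 h (-1.37, DESeq2 adjusted p = 2.24e-11) and higher at 6 h against 2 h (1.52, DESeq2 adjusted p = 3.79e-14). Mbd2 (1.09), Mbd6 (1.39) and Zbtb33 (1.09) were also called higher at 6 h against 2 h, of which Zbtb33 was not called with GC correction or without replicate 2 of 2 h and was at 1.71 without replicate 1 of 2 h, and Mbd2 not without replicate 1 of 6 h. Mbd5 was called higher (1.06) and Zbtb4 lower (-1.0) at 6 h against 0 h, and each call was lost in 5 of 14 alternatives. Both were lost with GC correction, that of Mbd5 also by library totals (0.81) and on the TPM scale (0.61), and that of Zbtb4 also without replicate 2 of 0 h and without replicate 1 of 6 h (-0.98 in each).

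In the methyl donor cycle of 9 genes, Mtrr, which keeps methionine synthase active, was called lower at 2 h at the edge of the threshold (-1.0), a call lost in 5 of 14 alternatives, among them GC correction, the fit on only the 2 groups compared and the fit without replicate 2 of 0 h (-0.85, DESeq2 adjusted p = 0.151), and Mat2b, a subunit of the enzyme that makes S-adenosylmethionine, was called higher at 6 h against 2 h (1.41, DESeq2 adjusted p = 2.38e-28). Of 8 GADD45 partners, the cell cycle inhibitor Cdkn1a was called higher at 2 h (1.03, DESeq2 adjusted p = 5.53e-14) and at 6 h (1.33, DESeq2 adjusted p = 1.29e-23), the earlier call being lost in 4 of 14 alternatives, among them library totals (0.86), the TPM scale (0.85) and the fit without replicate 1 of 0 h (0.93). Ercc5, a repair endonuclease, was called higher at 6 h against 2 h (1.08, DESeq2 adjusted p = 7.18e-16), a call lost on the TPM scale (0.87). Of 3 APOBEC deaminases, Apobec1 had a log2 fold change of -0.91 at 6 h against 0 h (DESeq2 adjusted p = 0.0504) and Apobec3 of -0.63 (DESeq2 adjusted p = 0.192), and Apobec2, with at most 1 count in each library, received no adjusted p.

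The calls of the members were compared across the alternative processing settings. At 2 h the 2 Gadd45 rises kept their side of the threshold in each of 14 alternatives, and Gadd45b did so at 6 h against 0 h, whereas the rise of Gadd45g at 6 h spanned the threshold.

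**Figure D5:**
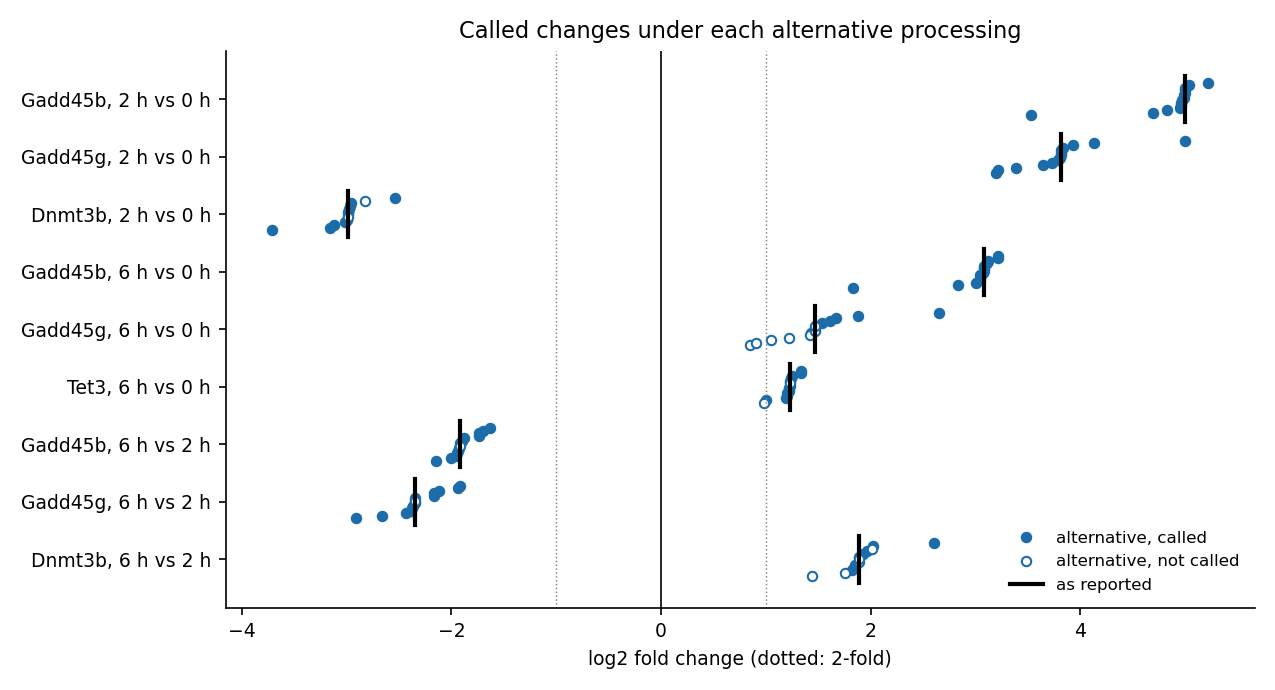
Log2 fold change (horizontal axis) of the 9 called changes of member genes (vertical axis) as reported (bar) and under each alternative (points, filled where still called). The alternatives of Gadd45g at 6 h against 0 h run from 0.85 to 2.65, with open points on both sides of the 2-fold line.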

How the data were processed

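Poly(A) RNA of 6 cultures was sequenced. Per the study's methods and the submitters' processing notes, the authors trimmed reads with Trim Galore, aligned them to mm10 with Bowtie2 2.2.9 and deposited RSEM 1.3.0 gene tables, holding expected counts (estimated reads per gene, not normalized) and TPM, with an effective length per gene. The annotation release and strand setting are not given in the sources used here. Gene symbols and positions came from GENCODE for GRCm38 (42462 of 43432 identifiers matched), and promoters from RefSeq, without their 50 transcribed bases. Protein sequences were not analysed here, and some genes of the related lists are not reported here.

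Expected counts were rounded and fitted with DESeq2 1.42.0 (R 4.3.3) over all 6 libraries by group, with Benjamini-Hochberg adjustment over all genes. Calls needed an adjusted p of at most 0.05 and a fold over 2, as in the study's methods. Alternatives used edgeR 4.0.16 and limma 3.58.1 (log2(TPM + 0.5)), and limma tested log2 effective length. The DESeq2 and limma fits were tested on simulated data. Groups and replicates came from sample titles. Every member was named, every related gene called in any comparison, and for each called member the 3 nearest genes by pattern. The members and lists were chosen with earlier results of these data known. Exact Poisson intervals cover counting error only. With 2 libraries a group, p-values rest on a spread pooled across genes.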

Additional observations from a re-analysis of the deposited data

How the results depend on the processing

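Of 417 values of the 10 members over 16 alternatives, 383 kept their direction and side of the threshold, 18 lost a call, 2 gained one and 14 changed sign, none of them a called value. Against a tested fold of over 2, 2 members were called at 2 h instead of 3 (Dnmt3b was lost), 1 at 6 h against 0 h instead of 3, 0 at 6 h against 2 h instead of 3 (by DESeq2, with 2 at an unadjusted p under 0.05, and 3 called by edgeR without that fold test), and 1 related gene at 6 h against 0 h and 1 against 2 h instead of 11 and 13. At 2 h, 0 related genes were called under that test instead of 5 (by DESeq2, with 0 at an unadjusted p under 0.05, and 5 called by edgeR without the fold test). This test asks for more than 2-fold beyond the error. By library totals, 1 member was called at 6 h against 0 h, and the median of all genes stood at -0.156 at 2 h and -0.251 at 6 h.

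The sign changed for Gadd45a at 2 h (-0.43 to 0.04 over the fits that leave out 1 library, the highest without replicate 2 of 0 h), at 6 h against 0 h (-0.09 by library totals, -0.04 on TPM, -0.05 without replicate 1 of 0 h, and -0.24 to 0.47 over the fits without 1 library) and at 6 h against 2 h (-0.02 to 0.69, the lowest without replicate 1 of 6 h), for Tdg at 2 h (-0.04 on TPM), for Dnmt3a at 6 h against 0 h (-0.05 by library totals) and against 2 h (0.03 with GC correction with or without the replicate block, 0.04 without replicate 2 of 2 h), and for Tet1 at 6 h against 2 h (-0.08 with GC correction with or without the block, -0.14 to 0.40 without 1 library, the lowest without replicate 2 of 2 h). The cause was not tested. From counts over the mean effective length, the shares became 66.6% for Tet3 at 6 h, 42.4% and 31.1% for Dnmt1 at 0 h and 6 h, and 56.8% and 68.5% for Dnmt3a.

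The mean of Dnmt3b over the 6 libraries was below the minimum of 0.5 TPM, so it was not fitted on the TPM scale. The replicate numbers were not taken to pair the cultures, since no label says that a number marks a shared culture or day and not every pair of groups correlated: the correlation of same-numbered deviations was 0.281, -0.002 and 0.152 over 12290 genes (0.115, -0.059 and 0.048 with GC correction). With the replicate block, 3 members were called in each comparison, and 5, 10 and 13 related genes instead of 5, 11 and 13. Counts of 50 or fewer, as in Dnmt3b and the Gadd45 genes at 0 h, limit the precision.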
